A study of Homo sapiens with 6 samples.

Results

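The genes described here are 44 genes of the unfolded protein response and of the amino acid stress response, taken by symbol from the 60748 genes of the deposited count table. The choice rule used roles in the pathways and no measured value as a criterion, but the list was drawn up with earlier results of these data known. They comprise 4 stress sensors, 6 transcription factors, 4 feedback and effector genes, 6 enzymes of serine, one-carbon and asparagine metabolism, 4 amino acid transporters, 11 chaperones and cochaperones of the endoplasmic reticulum (ER), 6 disulfide enzymes and 3 genes of ER-associated degradation. RNA was sequenced from a human cell line of hepatic stellate origin, LX-2, after 24 h of culture. LX-2FAP cells overexpressed fibroblast activation protein α (FAPα), a cell surface serine protease, after infection with a lentivirus (n = 3), and LX-2Vector cells carried the empty vector (n = 3), which per the study's methods holds EGFP and puromycin resistance and by its name a ubiquitin promoter. The methods describe stable clones selected with puromycin without giving how many clones the libraries stand for. The labels do not say whether the 3 libraries of a group came from separate cultures, so p-values measure the spread between these libraries.

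The unfolded protein response is started by membrane proteins of the ER. PERK (EIF2AK3) phosphorylates the translation factor eIF2α, IRE1 (ERN1) splices XBP1 mRNA, and ATF6 is cut in the Golgi to release a transcription factor. Phosphorylation of eIF2α, which GCN2 (EIF2AK4) brings about when amino acids run short, raises translation of ATF4, and ATF4 drives genes of amino acid synthesis, amino acid uptake and feedback, whereas ATF6 and spliced XBP1 drive chaperones and degradation genes of the ER. Hepatic stellate cells are the main source of collagen in the injured liver and then secrete large amounts of matrix protein. Much of this signalling acts on translation, phosphorylation, splicing and cleavage, which gene-level read counts do not measure.

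The libraries held 17355700 to 26352060 counts, of which the 44 genes took 0.736% to 0.813%. All 44 passed the filter on low counts, as did 18275 genes in all. FAP itself was at 1.85, 2.39 and 2.59 normalized counts-per-million (CPM) in LX-2Vector and at 620, 843 and 707 CPM with FAPα, as the labels require. Of the 8 stellate markers, VIM stood at 1545 CPM, COL1A1 at 306 CPM, TIMP1 at 188 CPM and PDGFRB at 24.8 CPM in LX-2Vector, whereas ACTA2 stood at 3.82 and COL1A2 at 1.17 CPM, DES was near 0 and LRAT had no count in any library. Of the 6 tested, COL1A1 and PDGFRB were called lower in LX-2FAP (log2 fold change -0.40 and -0.38, edgeR adjusted p = 0.0135 and 0.0269), VIM was called higher (0.13, adjusted p = 0.0372), and ACTA2, COL1A2 and TIMP1 did not pass (-0.36, -0.13 and 0.07). Of the 5 hepatocyte markers, ALB, APOA1, TF and TTR averaged 0.152 CPM or less in both groups, while SERPINA1 stood at 13.3 CPM in LX-2Vector and 11 CPM with FAPα (edgeR adjusted p = 0.0809). The sum of the 5 was 12.9 to 14.9 CPM and 10.5 to 11.7 CPM, without overlap. Of 3 epithelial markers, EPCAM and CDH1 averaged 0.224 CPM or less and KRT19 0.71 and 0.721 CPM, and of 3 leukocyte markers, CD3E and CD68 averaged 0.233 CPM or less and PTPRC 5.39 and 5.35 CPM. Of the 4 endothelial markers, whose sum was 9.4 to 10.6 CPM with the vector and 7.12 to 8.88 CPM with FAPα, VWF moved with the groups (2.46 ± 0.603 CPM in LX-2Vector, 1.17 ± 0.438 CPM with FAPα, edgeR adjusted p = 0.0268), PECAM1 stood at 4.25 and 4.36 CPM, KDR at 2.79 and 2.4 CPM and CDH5 at 0.312 and 0.219 CPM, and the part of any such cells in the results was not tested. In bulk RNA, fewer cells that express a gene and less RNA per cell cannot be told apart.

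The promoters of several of the genes carry the elements through which these pathways are known to act, and they are shown here to place the genes in the arms of the response. RefSeq promoter windows (GRCh38.p14, 250 bases before to 50 bases after each start) matched 40 of the 44 genes, and PDIA3, PSPH, SHMT2 and SLC7A11 had none. Each element was searched on both strands. The ER stress response element (ERSE), written CCAAT, then any 9 bases, then CCACG, was in a window of 8 of the 40 genes (HSPA5, HSP90B1, CANX, CALR, CRELD2, PDIA6, ERO1B and XBP1), against 0.0916% of 27305 genes with a window. Windows of 6 of the 8 follow, read 5′ to 3′ along the gene, with the element in capitals. It starts 66 bases before the annotated start in HSPA5, 52 in XBP1, 80 in CRELD2, 151 in CANX and 225 in CALR, and HSP90B1 has 2 copies, at 194 and 89 bases before its start.
HSPA5, chr9:125241366-125241434, minus strand: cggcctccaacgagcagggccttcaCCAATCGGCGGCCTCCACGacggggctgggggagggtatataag
HSP90B1, chr12:103930191-103930364, plus strand: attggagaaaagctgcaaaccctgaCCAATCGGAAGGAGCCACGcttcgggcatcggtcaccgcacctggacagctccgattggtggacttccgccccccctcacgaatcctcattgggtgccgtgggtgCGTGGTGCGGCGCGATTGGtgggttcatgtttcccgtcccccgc
CANX, chr5:179698753-179698821, plus strand: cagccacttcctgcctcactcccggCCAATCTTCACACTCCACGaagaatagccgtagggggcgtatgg
CALR, chr19:12938359-12938427, plus strand: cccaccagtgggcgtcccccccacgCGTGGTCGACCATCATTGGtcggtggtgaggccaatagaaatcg
CRELD2, chr22:49918529-49918597, plus strand: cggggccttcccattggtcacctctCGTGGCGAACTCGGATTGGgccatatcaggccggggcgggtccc
XBP1, chr22:28800578-28800646, minus strand: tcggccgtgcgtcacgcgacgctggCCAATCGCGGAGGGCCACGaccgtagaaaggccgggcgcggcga
ERSE-II, written ATTGG, 1 base, CCACG, was in windows of HERPUD1, SDF2L1 and HYOU1, the last with 2 copies, and in 0.0696% of all genes with a window. It is shown in capitals for a degradation gene and a chaperone partner.
SDF2L1, chr22:21642089-21642149, plus strand: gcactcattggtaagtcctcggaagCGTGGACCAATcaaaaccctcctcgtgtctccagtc
HERPUD1, chr16:56932000-56932060, plus strand: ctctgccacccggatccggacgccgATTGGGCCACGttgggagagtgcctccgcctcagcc
The element read by ATF4 with C/EBP partners (CARE), written TGATGNAA, was in windows of ASNS, ATF3, CHAC1, HERPUD1, SLC3A2 and SLC7A1, which is 6 of 40 genes against 4.46% of all genes with a window. It is shown for a feedback gene, an enzyme and a transporter, read on the other strand in CHAC1 and SLC3A2. It starts 209 bases before the annotated start in CHAC1 and 68 in ASNS, but lies after the annotated start in SLC3A2 and SLC7A1.
CHAC1, chr15:40953237-40953294, plus strand: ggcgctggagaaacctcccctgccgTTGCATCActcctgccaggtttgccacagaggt
ASNS, chr7:97872444-97872501, minus strand: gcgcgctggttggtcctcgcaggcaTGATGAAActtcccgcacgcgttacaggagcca
SLC3A2, chr11:62881711-62881748, plus strand: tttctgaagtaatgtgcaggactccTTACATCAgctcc
An ERSE or ERSE-II was thus found in 11 of the 40 genes (27.5%) against 0.161% of all genes, and 7 of the 11 are chaperones of the list. The genes were listed by their role in these pathways, so a share above that of all genes followed from the choice. The elements are matches of letters, and the absence of a match says nothing about a factor.

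The first comparison asked how the 44 genes differed between LX-2FAP and LX-2Vector. Of 11 ER chaperones and cochaperones, 4 rose, by modest amounts. These, HSPA5, CANX, HSP90B1 and DNAJB9, and the sensor ATF6 were called higher in LX-2FAP, by 11.5% to 20.3%, no gene of the 44 was called lower, and no transcription factor, feedback gene, metabolic enzyme or transporter passed the test. That is 5 of 44 genes (11.4%) at an edgeR quasi-likelihood adjusted p under 0.05, where 5.29% of the 18275 tested genes were called, and 5 of 44 called higher, where the background was 2.57%. The count called lower was 0, where the background was 2.73%, and no gene of the 44 had an unadjusted p under 0.05 in that direction. An unadjusted p under 0.05 was reached by 14 genes (31.8%), all with the higher value in LX-2FAP, against 22.2% of tested genes in either direction. All 3 LX-2FAP libraries lay above all 3 LX-2Vector libraries for 16 genes (36.4%), where 13% of tested genes did so. No gene showed the opposite order, where 13.4% of tested genes did. For any 1 gene, the smallest 2-sided p that exact permutation of 3 and 3 libraries can give is 0.1.

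The log2 fold change of the 44 genes (LX-2FAP minus LX-2Vector) ran from -0.14 for ATF3 to 0.27 for DNAJB9, with a median of 0.07, while the median over all tested genes was -0.01. It lay above 0 for 34 of the 44 (77.3%, against 47% of all tested genes). The summed level of the 44 genes was 7505, 7434 and 7287 CPM with the vector and 7776, 8243 and 7915 CPM with FAPα. Their sum did not overlap between the groups, and most of the gap was held by the chaperones, whose sum was 3121 ± 19.7 CPM with the vector and 3493 ± 78.2 CPM with FAPα (SD, n = 3). The fold change that the study set as its cutoff, 1.2 with a p under 0.05, was met by DNAJB9 alone when the unadjusted p was used, and by 7.89% of tested genes.

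**Figure D1:**
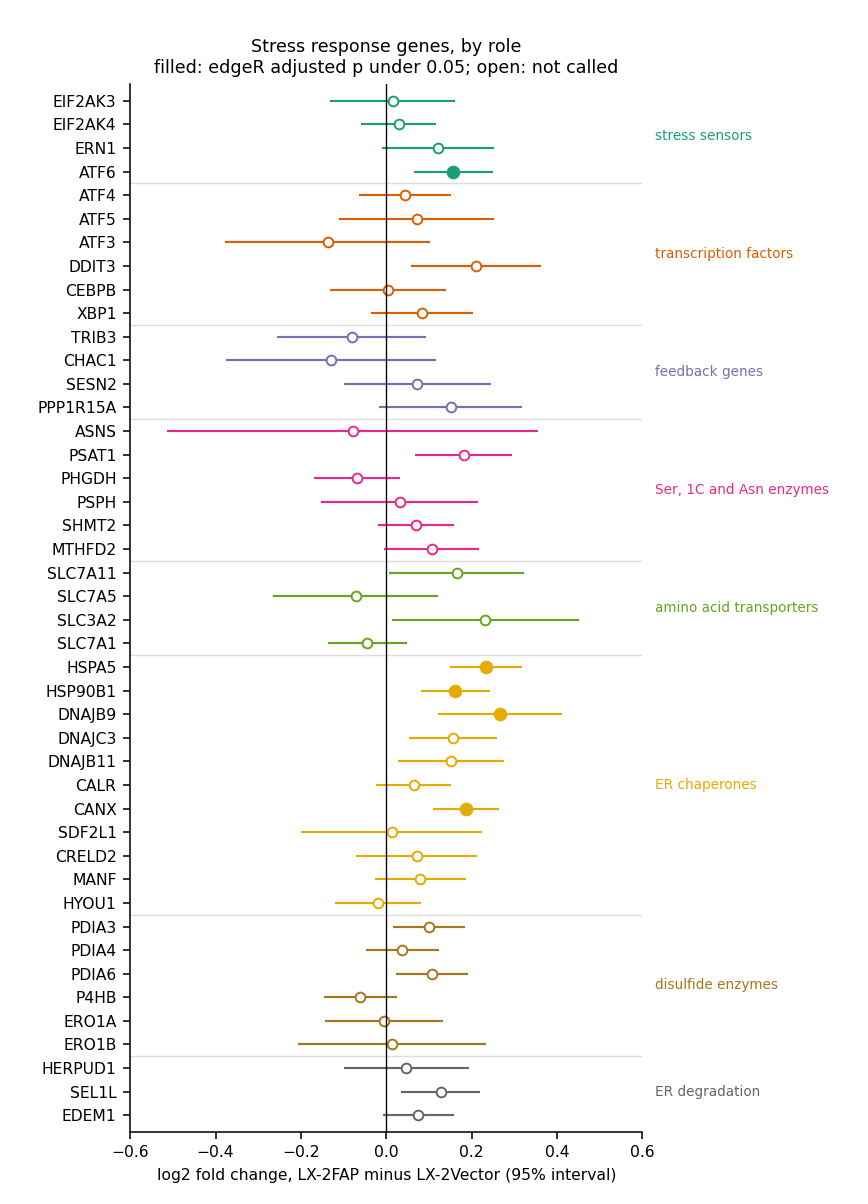
Log2 fold change of each of the 44 genes between LX-2FAP and LX-2Vector (x axis) with its 95% interval from edgeR, grouped and coloured by role. Filled points are the 5 genes called at an adjusted p under 0.05, of which 4 are ER chaperones or cochaperones and the other is ATF6; the remaining 39 points are open.

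The ER chaperones gave the clearest difference. Of 11 genes, 4 were called, all higher (36.4%, where 2.57% of all tested genes were called higher). A log2 fold change above 0 was found for 10 (90.9%, against 47% of all tested genes). For 7 (63.6%, against 13%), every LX-2FAP library lay above every LX-2Vector library. The median of the 11 was 0.15. Their median SD of log2 CPM within groups was 0.0589, against 0.094 over 16197 genes with over 100 counts. At a lower spread, small differences are more easily called and more easily separate the groups. Genes of like spread were not compared. HSPA5 encodes BiP, the Hsp70 chaperone of the ER that holds the stress sensors inactive. Its level was 451, 453 and 452 CPM with the vector and 511, 557 and 526 CPM with FAPα. The LX-2Vector libraries were nearly equal and the 3 LX-2FAP libraries all lay higher, a rise of 17.5% (95% interval 10.9% to 24.6%, log2 fold change 0.23, SE 0.04, adjusted p = 0.00765 by edgeR). HSPA5 (ENSG00000044574) lies on GRCh38 chr9:125234853-125241330.

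CANX encodes calnexin, the membrane lectin that holds newly made glycoproteins until they fold, and lies on chr5:179678628-179730925. It was the most counted of the 44 genes, at 1344, 1354 and 1331 CPM with the vector and 1479, 1583 and 1524 CPM with FAPα. The groups were apart by more than their ranges, and CANX rose by 13.8% (95% interval 7.93% to 20%, log2 fold change 0.19, SE 0.04, adjusted p = 0.012 by edgeR). HSP90B1 encodes GRP94, the ER form of Hsp90, and lies on chr12:103930107-103953645. It stood at 483, 506 and 513 CPM with the vector and 563, 551 and 566 CPM with FAPα. LX-2FAP libraries lay close together above the others, a rise of 11.9% (95% interval 5.81% to 18.3%, log2 fold change 0.16, SE 0.04, adjusted p = 0.0252 by edgeR).

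DNAJB9 encodes ERdj4, an ER cochaperone that binds BiP and IRE1, and lies on chr7:108569568-108574850. Its level was low, at 23.9, 25.4 and 24.1 CPM with the vector and 27.6, 31.9 and 28.9 CPM with FAPα. It had the largest fold change of the 44, a rise of 20.3% (95% interval 8.8% to 33.1%, log2 fold change 0.27, SE 0.07, adjusted p = 0.0353 by edgeR). Its exons share 6.5% of their bases with genes on the other strand.

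The other chaperones did not pass. DNAJC3, which encodes a cochaperone that inhibits PERK, was at 129, 132 and 119.5 CPM with the vector and 134, 145 and 145 CPM with FAPα (log2 fold change 0.16, SE 0.05, adjusted p = 0.0692 by edgeR). DNAJB11, a secreted cochaperone of BiP, was at 41.3, 40.6 and 39.6 CPM with the vector and 44.3, 48.5 and 42.6 CPM with FAPα (log2 fold change 0.15, SE 0.06, adjusted p = 0.135 by edgeR). Neither pair of groups overlapped. CALR encodes calreticulin, the soluble partner of calnexin, and was at 467, 438 and 442 CPM with the vector and 481, 477 and 449.7 CPM with FAPα. Its groups overlapped (log2 fold change 0.06, 95% interval -0.02 to 0.15). The 95% intervals of MANF (log2 fold change 0.08), CRELD2 (0.07), SDF2L1 (0.01) and HYOU1 (-0.02) all held 0, the widest running from -0.20 to 0.22 for SDF2L1. Of the 7 chaperones whose promoter window held an ERSE or ERSE-II, HSPA5, CANX and HSP90B1 were called and CALR, CRELD2, SDF2L1 and HYOU1 were not, and DNAJB9 was called without either element in its window.

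**Figure D2:**
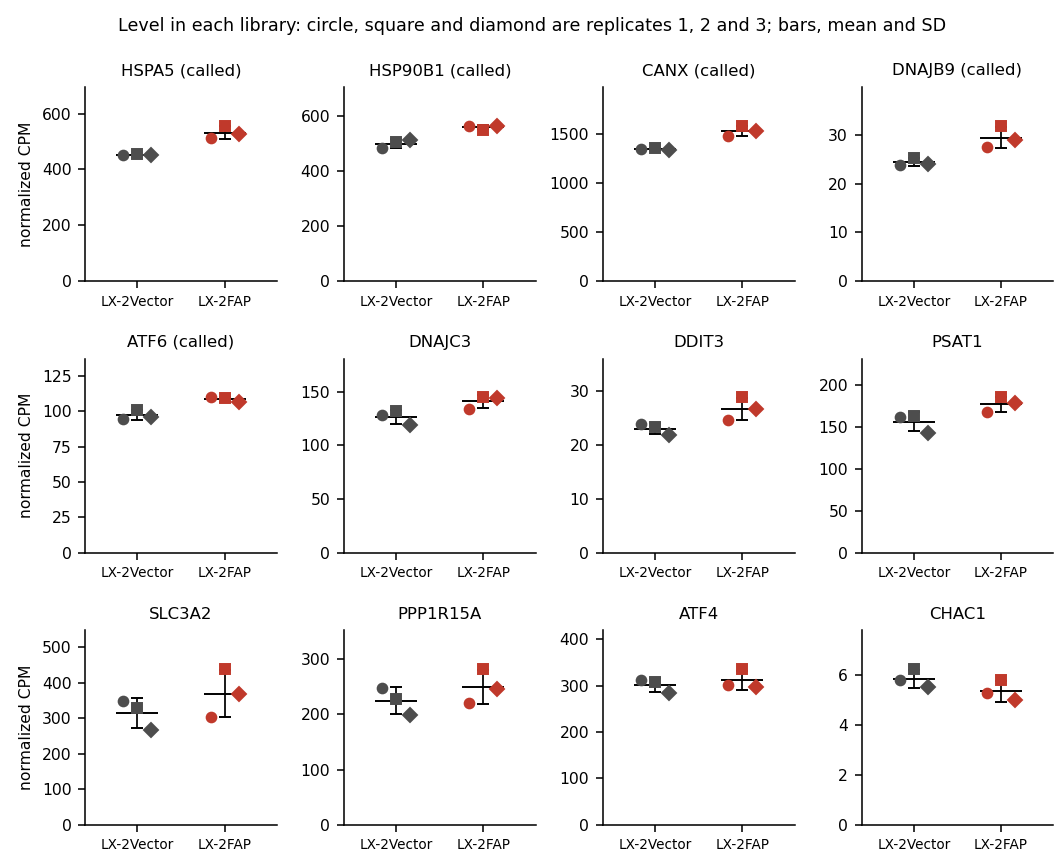
Normalized CPM (y axes, each from 0) of 12 genes in the 3 LX-2Vector libraries (grey) and the 3 LX-2FAP libraries (red), with the mean and SD of each group as bars. The 5 called genes come first and their groups do not overlap, whereas those of SLC3A2, PPP1R15A, ATF4 and CHAC1 overlap. The square of LX-2FAP replicate 2 lies above the other LX-2FAP points in every panel but those of HSP90B1 and ATF6, narrowly so for DNAJC3.

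The calls among the chaperones rested on single libraries to different degrees. HSPA5 stayed called in 5 of the 6 fits that left out a library and missed the threshold without LX-2FAP replicate 3 (log2 fold change 0.24, adjusted p = 0.0693 by edgeR). CANX stayed called in 4 and missed it without LX-2FAP replicate 2 (adjusted p = 0.0707) and replicate 3 (0.094). HSP90B1 stayed called without LX-2Vector replicate 3 and LX-2FAP replicate 1, with adjusted p-values of 0.0539 to 0.159 in the other 4 edgeR fits. DNAJB9 stayed called in the edgeR fit without LX-2FAP replicate 1 and had adjusted p-values of 0.0515 to 0.174 in the rest. Without LX-2FAP replicate 1, on the other hand, 10 of the 44 genes were called, the 4 chaperones joined by DNAJC3, ERN1, DDIT3, PSAT1, SLC7A11 and SLC3A2 (edgeR adjusted p = 0.00569 to 0.0453 for these 6), and the share of all tested genes called rose to 10.4%. The count was 2 without LX-2Vector replicate 1 or 2 (2.09% and 3.54% of all tested genes), 3 without LX-2Vector replicate 3 (2.12%), 1 when LX-2FAP replicate 2 was left out (0.687%) and 0 when LX-2FAP replicate 3 was (0.138%), where 11 of the 44 still had an unadjusted p under 0.05. In each of these fits the 4 chaperones kept a positive log2 fold change, of 0.14 to 0.32. HSP90B1, DNAJB9 and ATF6 also missed the threshold with scaling by library size alone (edgeR adjusted p = 0.0549, 0.0515 and 0.0973) and with a GC trend removed (0.0569, 0.0834 and 0.119). None of the 5 was called by limma-trend on FPKM (adjusted p = 0.112 to 0.209), which called 2 of all tested genes.

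The disulfide enzymes, which form and rearrange disulfide bonds in newly made proteins, gave 0 calls of 6, where 5.29% of all tested genes were called. An unadjusted p under 0.05 was found for 2 (33.3%, against 22.2% of all tested genes). In role groups this small, here and below, a count of 0 calls does not set the group apart from all genes. The median log2 fold change of the disulfide enzymes was 0.03. PDIA3, an isomerase that works with calnexin and calreticulin, was at 352, 351 and 368 CPM with the vector and 396, 376 and 376 CPM with FAPα (log2 fold change 0.10, SE 0.04, adjusted p = 0.149 by edgeR). PDIA6 was at 152, 154 and 153 CPM with the vector and 163, 169 and 162 CPM with FAPα (log2 fold change 0.11, SE 0.04, adjusted p = 0.122 by edgeR). Both had all LX-2FAP libraries above all LX-2Vector libraries, but 18.9% of PDIA3 exon bases and 25.2% of PDIA6 exon bases lie opposite exons on the other strand, and whether counting used strand is not given in the sources used here. PDIA4 also did not overlap, with a log2 fold change of 0.04. P4HB, ERO1A and ERO1B lay between -0.06 and 0.01, with 95% intervals that held 0.

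The degradation genes gave 0 calls of 3, where 5.29% of all tested genes were called. SEL1L, the partner of the ubiquitin ligase HRD1, was at 159, 166 and 160.4 CPM with the vector and 175, 169.7 and 186 CPM with FAPα (log2 fold change 0.13, SE 0.04, adjusted p = 0.0987 by edgeR). EDEM1, which marks misfolded glycoproteins for degradation, was at 204, 212 and 214 CPM with the vector and 217, 222 and 224 CPM with FAPα (log2 fold change 0.07, 95% interval -0.01 to 0.16). Both genes had groups that did not overlap. HERPUD1, a scaffold of the degradation complex, overlapped (log2 fold change 0.05).

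Of the 4 sensors, ATF6 was the gene called. ATF6 (ENSG00000118217, chr1:161766294-161964070) was at 94.8, 101 and 96.1 CPM with the vector and 109.7, 109 and 106 CPM with FAPα. The groups did not overlap, and ATF6 rose by 11.5% (95% interval 4.6% to 18.9%, log2 fold change 0.16, SE 0.04, adjusted p = 0.0476 by edgeR). This call sat at the threshold: it was lost in each of the 6 edgeR fits that left out a library (adjusted p = 0.0504 to 0.176), although the log2 fold change stayed between 0.14 and 0.19. EIF2AK4, the sensor with the highest level per length, was at 128, 130.3 and 135 CPM with the vector and 135, 132 and 134 CPM with FAPα (log2 fold change 0.03, 95% interval -0.06 to 0.12). ERN1 had a log2 fold change of 0.12 (95% interval -0.01 to 0.25) and EIF2AK3 one of 0.02 (-0.13 to 0.16), both with groups that overlapped.

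None of the 6 transcription factors passed, where 5.29% of all tested genes did, and the level of ATF4 mRNA moved little. ATF4 was at 313, 308 and 284 CPM with the vector and 302, 335 and 296 CPM with FAPα. The groups overlapped, and the 95% interval of the change ran from -4.34% to 11.1% (log2 fold change 0.04, adjusted p = 0.672 by edgeR). ATF4 shares 7.8% of its 75-base words with the pseudogenes ATF4P4 and ATF4P3. DDIT3 encodes CHOP, a factor tied to cell death under lasting stress, and was the factor with the largest difference. It was at 23.8, 23.2 and 21.8 CPM with the vector and 24.7, 28.7 and 26.5 CPM with FAPα. Its groups did not overlap, but it missed the threshold (log2 fold change 0.21, SE 0.07, adjusted p = 0.0965 by edgeR), and 31.6% of its exon bases lie opposite exons of other genes. ATF3, XBP1, ATF5 and CEBPB had log2 fold changes of -0.14, 0.08, 0.07 and 0.00, each with a 95% interval that held 0. Gene counts do not separate the spliced from the unspliced form of XBP1 mRNA.

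The 4 feedback and effector genes, which shut off or carry out the response, had a median log2 fold change of 0.00. None was called, where 5.29% of all tested genes were. PPP1R15A encodes GADD34, the phosphatase subunit that removes the phosphate from eIF2α. It was at 247, 228 and 198 CPM with the vector and 221, 282 and 246 CPM with FAPα. Each group spanned a wide range and they overlapped (log2 fold change 0.15, 95% interval -0.02 to 0.32). SESN2, a sensor of leucine that restrains mTORC1, had a log2 fold change of 0.07. TRIB3, a pseudokinase that restrains ATF4, and CHAC1, which breaks down glutathione, had values of -0.08 and -0.13. CHAC1 is a known target of ATF4 and CHOP, and its 95% interval was -0.37 to 0.12 at a level of 5.83 ± 0.357 CPM in LX-2Vector (SD, n = 3).

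None of the 6 enzymes of serine, one-carbon and asparagine metabolism was called, where 5.29% of all tested genes were. PSAT1, the transaminase of serine synthesis, came closest, with 162, 163 and 143 CPM with the vector and 167, 185 and 179 CPM with FAPα. Its groups did not overlap (log2 fold change 0.18, SE 0.05, adjusted p = 0.0588 by edgeR). Of the other serine synthesis enzymes, PHGDH, which catalyses the first step, had a log2 fold change of -0.07 (95% interval -0.17 to 0.03) and PSPH, the last, 0.03 (-0.15 to 0.22). SHMT2 and MTHFD2, which pass the serine carbon to folate in mitochondria, had values of 0.07 and 0.11, and the SHMT2 groups did not overlap. ASNS, asparagine synthetase, was nearly silent in the table, with 33 to 67 counts a library and 0.43 FPKM (a level scaled by gene length and depth) in LX-2Vector. Its level is uncertain, since 44.6% of its exon bases are shared on the same strand with AC079781.5, which itself had 17 to 38 counts a library.

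The amino acid transporters gave 0 calls of 4, where 5.29% of all tested genes were called. Their median SD of log2 CPM within groups was 0.143, close to the 0.141 of the feedback genes and above the 0.094 of 16197 genes with over 100 counts. SLC3A2 encodes 4F2hc, the heavy chain that both SLC7A5 and SLC7A11 need at the cell surface. It was at 348, 328 and 267 CPM with the vector and 303, 438 and 367 CPM with FAPα. The LX-2Vector and LX-2FAP libraries overlapped, with LX-2Vector replicate 3 the lowest and LX-2FAP replicate 2 the highest of the 6, and the log2 fold change of 0.23 was not called (SE 0.10, adjusted p = 0.199 by edgeR). SLC7A11, the cystine transporter, was at 126, 129 and 114 CPM with the vector and 118, 151 and 145 CPM with FAPα (log2 fold change 0.16, adjusted p = 0.204 by edgeR). SLC7A5, which carries leucine, and SLC7A1, which carries arginine, had log2 fold changes of -0.07 and -0.04.

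The order of the libraries was then counted in 2 sets of role groups without the sensors, a description chosen after the values were seen. XBP1 was counted with the factors, so the sets are not strictly the arms of the response. Among the 20 factors, feedback genes, enzymes and transporters, LX-2FAP replicate 2 was the highest LX-2FAP library in 18 and LX-2Vector replicate 3 the lowest LX-2Vector library in 18. Both held at once in 17 of 20 genes (85%), with CEBPB, PSPH and SLC7A1 as the exceptions, where 15.7% of 16197 genes with over 100 counts showed that order. Among the 20 chaperones, disulfide enzymes and degradation genes it held in 5 (25%). These were 4 of the 11 ER chaperones (36.4%, above the 15.7% of all genes), 1 of the 3 degradation genes and 0 of the 6 disulfide enzymes. The difference between these shares was not tested, since genes of 1 library are not replicates.

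The mean deviation of the 20 genes of the first set from their own means over the 6 libraries was 0.06, 0.01 and -0.13 log2 units in LX-2Vector and -0.05, 0.15 and -0.03 in LX-2FAP, so that the groups overlapped. For the 20 ER genes it was -0.04, -0.05 and -0.05 in LX-2Vector and 0.03, 0.06 and 0.05 in LX-2FAP, and the groups did not overlap. For the 6 disulfide enzymes among them the groups did overlap, at -0.054, -0.039 and 0.045 in LX-2Vector and 0.020, -0.0038 and 0.032 in LX-2FAP. The median SD of log2 CPM within groups was 0.11 in the first set, 0.0522 in the second and 0.094 over the 16197 genes. The median log2 fold change of the first set was 0.06 with all libraries. It was 0.01 without LX-2FAP replicate 2 or LX-2Vector replicate 3 and 0.07 to 0.09 in the other 4 fits that left out a library. These 2 libraries were named as the extremes of the same genes, so a smaller median without them followed from that choice. The median of the ER set stayed between 0.08 and 0.10 in all 6. That of the 11 ER chaperones alone was 0.15 with all libraries, 0.10 without LX-2FAP replicate 2 and 0.12 without LX-2Vector replicate 3. In the other 4 fits it was 0.14 to 0.16. What set these 2 libraries apart was not tested, and the labels give no batch or date.

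**Figure D3:**
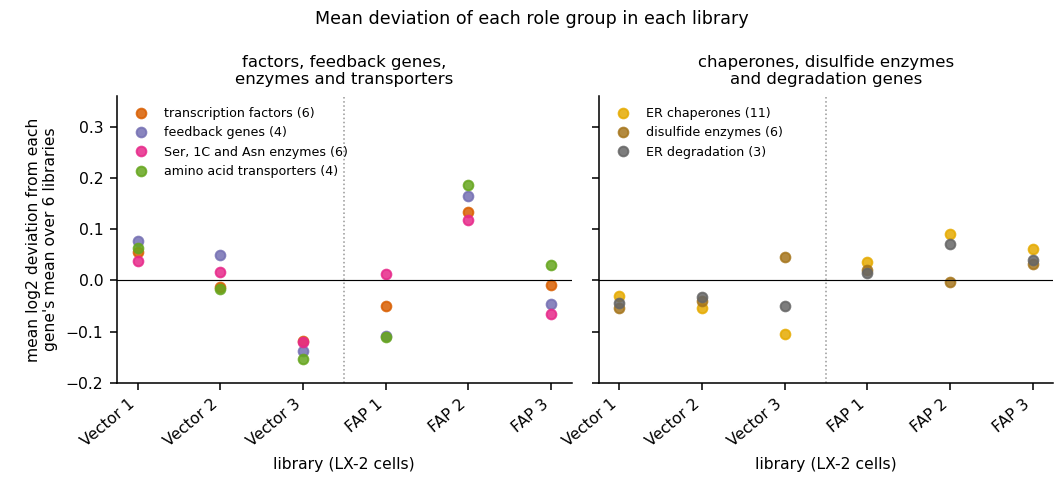
Mean log2 deviation of each role group (y axis, in log2 CPM units, from each gene's mean over the 6 libraries) in each LX-2Vector and LX-2FAP library (x axis), with the number of genes in brackets. On the left, all 4 groups are lowest in Vector 3 among the vector libraries and highest in FAP 2. On the right, ER chaperones and degradation genes are also lowest in Vector 3 and highest in FAP 2. They lie below 0 in every vector library and above 0 in every FAP library. The disulfide enzymes, also on the right, do not: they are highest in Vector 3 (0.045) and slightly below 0 in FAP 2 (-0.0038).

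**Figure D4:**
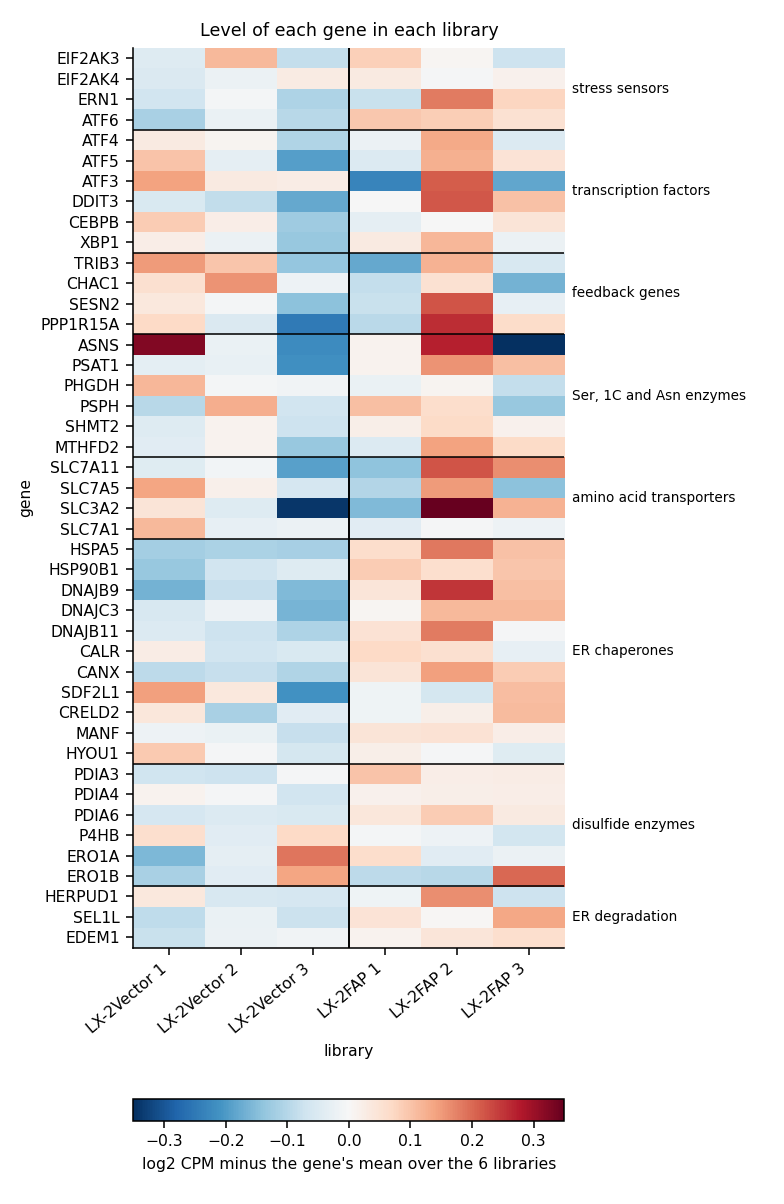
Log2 CPM of each of the 44 genes in each library minus that gene's mean over the 6 libraries, red for above and blue for below the mean, with the groups parted by a vertical line. HSPA5, HSP90B1, DNAJB9 and CANX are blue in all LX-2Vector libraries and red in all LX-2FAP libraries, and they are named because they were called. CALR, which lies between their rows, overlaps between the groups. Genes from ATF4 to SLC3A2 are mostly red in LX-2FAP replicate 2.

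Per length, the 44 genes spanned a wide range of levels in LX-2Vector. CALR was highest at 161 ± 4.9 FPKM (SD, n = 3), followed by ATF4 at 116 ± 5.67, CANX at 98.3 ± 1 and PDIA3 at 85.3 ± 2.42 FPKM, and neighbours in this order did not overlap within 1 SD. PPP1R15A at 73.8 ± 7.84, PSAT1 at 71.2 ± 5.11 and HSPA5 at 69.8 ± 0.472 FPKM did not differ beyond their spread. Sensors were low, from 1.41 ± 0.107 FPKM for EIF2AK3 to 11 ± 0.336 FPKM for EIF2AK4. ATF3, a factor induced early in stress, stood at 2.52 ± 0.103 FPKM and CHAC1 at 2.87 ± 0.18 FPKM. The order of levels in LX-2FAP began with the same 4 genes, at 165 ± 6.22, 118 ± 7.86, 109.7 ± 3.52 and 89.5 ± 2.89 FPKM.

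**Figure D5:**
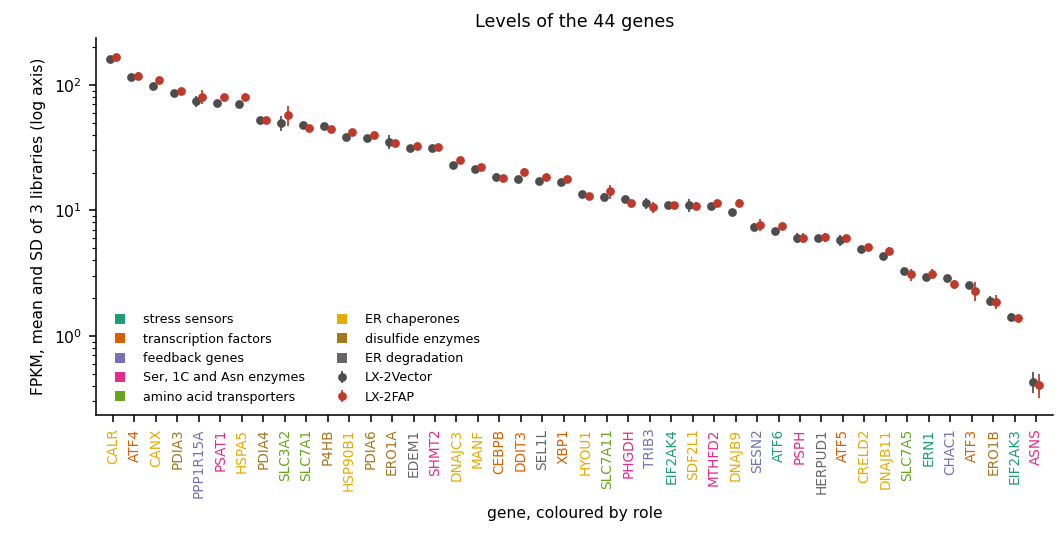
FPKM of the 44 genes on a log axis, mean and SD of the 3 LX-2Vector libraries (grey) and the 3 LX-2FAP libraries (red), ordered by the LX-2Vector mean, with gene names coloured by role. CALR, ATF4 and CANX lead and ASNS is lowest at 0.43 FPKM in LX-2Vector, and the distance between the groups is small beside the range across genes.

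Other genes of the same pathways were read from the same fit, in 3 lists. Of 20 cytosolic aminoacyl-tRNA synthetases, which charge tRNAs and are ATF4 targets in many cells, 3 were called (15%, where 5.29% of all tested genes were), all higher: FARSB (log2 fold change 0.20, SE 0.05), TARS1 (0.16, SE 0.04) and EPRS1 (0.16, SE 0.04), with edgeR adjusted p-values of 0.0244 to 0.0284. A log2 fold change above 0 was found for 16 of the 20 (47% of all tested genes), with a median of 0.09, and an unadjusted p under 0.05 for 10 (22.2% of all tested genes). These genes also varied by library, with the order described above in 10 of 20, and 0 of them were called by edgeR without LX-2FAP replicate 2, LX-2FAP replicate 3, LX-2Vector replicate 1 or LX-2Vector replicate 3, although the 3 named genes kept a positive log2 fold change (0.15 to 0.25) in every fit that left out a library. EPRS1 and TARS1 missed the threshold with library size alone (edgeR adjusted p = 0.0588 and 0.0504) and FARSB with a GC trend removed (0.0641).

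Of 33 other ER quality control genes, 32 were tested and 2 were called, both higher. That is 6.25%, near the 5.29% of all tested genes. HSPA13, an Hsp70-like protein of the ER, was at 270.1, 289 and 274 CPM with the vector and 306, 335 and 342 CPM with FAPα (log2 fold change 0.24, adjusted p = 0.0122 by edgeR). SSR1, a subunit of the complex at the translocon, rose by 0.16 on the log2 scale (adjusted p = 0.044 by edgeR). Both calls were lost without LX-2FAP replicate 2 (edgeR adjusted p = 0.0626 and 0.196) and without replicate 3 (0.108 and 0.193), and SSR1 was also lost without any 1 of the LX-2Vector libraries (0.0547 to 0.107) and with library size alone (0.09). With a GC trend removed neither was called (0.0646 and 0.115). The median of the 32 was 0.07, and 21 lay above 0 (65.6%, against 47% of all tested genes).

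Of 27 other genes of the integrated stress response, 24 were tested and 4 were called (16.7%, against 5.29% of all tested genes), of which 3 were lower, where 2.73% of all tested genes were. DDIT4 encodes REDD1, a stress-induced inhibitor of mTORC1. It was at 46.2, 42.1 and 57.8 CPM with the vector and 38.9, 27.9 and 27 CPM with FAPα, and fell by 35.5%. All LX-2FAP libraries lay below all LX-2Vector libraries (log2 fold change -0.63, SE 0.12, adjusted p = 0.012 by edgeR), and the call was lost with the DESeq2 Wald test (adjusted p = 0.0503). STC2, a secreted glycoprotein induced by ATF4, and GPT2, a mitochondrial alanine transaminase, fell by 0.26 and 0.30 on the log2 scale (edgeR adjusted p = 0.0144 and 0.0215). EIF2S1, which encodes eIF2α itself, rose by 0.18 (edgeR adjusted p = 0.0252). The median of the 24 was -0.04, and 15 lay below 0 while 9 lay above it (37.5%, against 47% of all tested genes). All 4 calls were lost without LX-2FAP replicate 2 or 3 (edgeR adjusted p = 0.0581 to 0.155). Of the 4, 2 were called without LX-2Vector replicate 1 and 1 without LX-2Vector replicate 3. GPT2 and EIF2S1 missed the threshold with a GC trend removed (edgeR adjusted p = 0.0543 and 0.0862).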

How the data were processed

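RNA-seq of LX-2Vector (n = 3) and LX-2FAP (n = 3) was grouped by the sample titles. The authors deposited whole-number counts per gene, not normalized, together with FPKM values computed from gene length and count. The submitters' processing notes name HISAT2 2.0.5, featureCounts 1.5.0-p3, DESeq2 1.16.1, edgeR and the build hg18, while the release of the annotation and whether strand was used are not given in the sources used here. The methods name both a poly(A) step and ribosomal depletion, and how the 2 were combined is not settled. Columns of the authors' own comparisons (fold changes and p-values) were not used.

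Counts were tested on the whole table by the edgeR 4.0.16 quasi-likelihood method (R 4.3.3; TMM; default filter, minimum count 10, minimum total 15; no covariate; 2-sided), with Benjamini-Hochberg adjustment over the 18275 tested genes and calls at an adjusted p under 0.05. Normalized CPM are counts divided by the TMM-scaled library size. Standard errors were derived from the test statistic. The test was checked on simulated counts. Total counts of 17355700 to 26352060 per library set the precision.

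The 44 genes, the 3 further lists and the cell type markers were chosen with earlier results of these data known. Values per library are given for called genes, for genes with an unadjusted p under 0.05 and no overlap, and for the gene with the highest FPKM of each role, and of each further list the called genes are named. SLC7A11, whose values per library are also given, was picked after its values were seen. Of the further lists, HSPA13 and DDIT4 are also given per library outside this rule. Each has the largest change among the called genes of its list. Alternatives were DESeq2 1.42.0, DESeq2 size factors, library size alone, 2 filters, a replicate block, limma-trend (limma 3.58.1) on FPKM in log2 form with a pseudocount of 1 or 0.1, a GC trend removed and each library left out. Gene positions and shared exons are from GENCODE release 29 (GRCh38), and promoter sequences from RefSeq (GRCh38.p14). No coordinate was taken from the deposited table.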

Additional observations from a re-analysis of the deposited data

How the results depend on the processing

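Of the 44 genes, 5 were called and 5 called higher. Percentages in brackets below are the share of all tested genes called, which was 5.29% in the main fit. The 2 counts were 2 and 2 with library size alone (5.73%) and with a GC trend removed (2.62%). With no filter on low counts they were 10 and 10 (3.9%). They were 0 and 0 with limma-trend on either FPKM scale (0.0109%). Of the 44 genes, 9 had an unadjusted p under 0.05 by limma-trend on each scale. The share of all tested genes at that level was not counted for limma-trend and was 22.2% in the main edgeR fit. With 1 library left out the 2 counts of called genes were 0 to 10 (0.138% to 10.4%). DESeq2 size factors gave 6 called genes (5.76%), at least 10 counts in every sample 5 (6.32%) and the replicate block 4 (5.34%). The DESeq2 Wald test gave 7 (8.93% of the genes with an adjusted p). None was called lower in any setting. The 1 gene at the study's cutoff became 0 with library size alone and with limma-trend, and 1 to 4 with 1 library left out. Of the further lists 9 genes were called, 14 with no filter, 0 with limma-trend and 0 to 17 with 1 library left out, beside the same shares of all tested genes. The causes were not tested. The 5 called genes kept their direction throughout, and FAP was called in all 15 alternatives.

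Replicate numbers did not pair the libraries (r between same-numbered libraries -0.0351, 0.0405 and -0.00839). The replicate block kept 4 calls and left out ATF6 (adjusted p = 0.0526), and turned the log2 fold change of ERO1A to 0.00081.

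Among 659 alternative values of single genes, 565 kept direction and side of the threshold. A call was lost in 35, all of them values of the 5 called genes, which had 15 alternatives each. A call was gained in 14. The sign changed in 45, all values of genes not called in the main fit. With library size alone their log2 fold changes were -0.013 for EIF2AK3, -0.025 for CEBPB, -0.016 for SDF2L1 and -0.014 for ERO1B. With limma-trend at pseudocounts of 1 and 0.1 they were -0.011 and -0.017 for EIF2AK3, -0.019 and -0.0202 for CEBPB, -0.0048 and -0.0056 for PSPH, -0.00697 and -0.0071 for SDF2L1 and -0.013 and -0.0195 for ERO1B. With the GC trend removed they were -0.00297 for EIF2AK3, 0.028 for TRIB3, 0.039 for SLC7A5, 0.00057 for SLC7A1, 0.044 for HYOU1, 0.027 for P4HB and -0.064 for ERO1B. ERO1A was at 0.0011 with DESeq2 size factors and 0.00016 with the Wald test. With 1 library left out the ranges were -0.025 to 0.079 for EIF2AK3, -0.012 to 0.0796 for ATF4, -0.047 to 0.057 for CEBPB, -0.017 to 0.13 for SESN2, -0.22 to 0.11 for ASNS, -0.018 to 0.10 for PSPH, -0.062 to 0.0052 for SLC7A1, -0.075 to 0.10 for SDF2L1, -0.048 to 0.026 for HYOU1, -0.081 to 0.10 for ERO1A, -0.0896 to 0.098 for ERO1B and -0.019 to 0.097 for HERPUD1.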
